A study of Mus musculus with 4 samples.

Results

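Of the microRNAs (miRNAs) measured in the joint lining (synovium) of mice, 7 are linked to fat cells: mmu-miR-193b, mmu-miR-365, mmu-miR-378, mmu-miR-26a, mmu-miR-26b, mmu-miR-103 and mmu-miR-107. They were taken by name from 750 miRNA assays, with the other (star) strands left out, as a gauge of fat tissue there. 6 mouse-named assays were found, and miR-378 was read by the human-named assay because no mouse-named one was on the chips. Arthritic synovium came from around the ankle of C57BL/6J mice at day 10 after serum of K/BxN mice had brought on arthritis, at its peak, in 2 pools of 10 mice each. Non-arthritic synovium of the same strain was taken at day 0, in 2 pools of 3 mice each. The labels call the pools biological replicates. The labels name the same serum source for the day 0 pools, and no transgene is named.

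A miRNA guides a protein complex to messenger RNAs that match its seed, bases 2 to 8, and represses them. miR-193b and miR-365 are made from a shared cluster that is abundant in brown fat, where they have been tied to the formation of brown fat cells. miR-378 lies inside Ppargc1b, a regulator of mitochondrial genes, and acts on lipid metabolism. The miR-26 family favours fat cell differentiation in human precursors, and miR-103 and miR-107 act on fat cell formation and insulin sensitivity in mice. Each is also made in many other cell types, so none is a marker of fat cells alone.

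The mature sequences are printed to show which members share a seed, and thus target rules, and which differ by few bases, and thus are hard for assays to tell apart. They are from RefSeq (GRCm38.p6), 5′ to 3′, with the seed in capitals. The arm is the one that carried the plain name in older nomenclature. The last line is a relative outside the set, whose assay is described with miR-193b.
mmu-miR-193b-3p: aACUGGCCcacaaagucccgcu
mmu-miR-365-3p: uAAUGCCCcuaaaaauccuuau
mmu-miR-26a-5p: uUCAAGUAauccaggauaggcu
mmu-miR-26b-5p: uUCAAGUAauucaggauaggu
mmu-miR-103-3p: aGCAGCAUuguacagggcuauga
mmu-miR-107-3p: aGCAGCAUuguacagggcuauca
mmu-miR-193a-3p: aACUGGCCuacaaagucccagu

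miR-26a and miR-26b share a seed, and counted from the 5′ end they differ by C11U and C21U, with miR-26b 1 base shorter. miR-103 and miR-107 share a seed and differ by G22C alone. miR-193b shares its seed with miR-193a, from which it differs by C9U, G20A and C21G. No other mature miRNA of the 1679 in the table has the seed of miR-365. No sequence is shown for miR-378.

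The genes lie at several places in the genome. Mature miR-193b maps to chr16:13449570-13449591 and one copy of miR-365 to chr16:13453895-13453916, both on the plus strand, and the annotated hairpin genes Mir193b and Mir365-1 are 4238 bases apart inside the predicted genes Gm32817 and Gm53058. The other copy of miR-365 is at chr11:79726467-79726488, and its gene Mir365-2 lies 14365 bases from Mir193a. The miR-26 genes lie within 3 phosphatase genes, miR-26a in Ctdspl (chr9:119031811-119031832) and Ctdsp2 (chr10:126995543-126995564) and miR-26b in Ctdsp1 (chr1:74394324-74394344). The miR-103 and miR-107 genes lie within pantothenate kinase genes, miR-103 in Pank2 (chr2:131288103-131288125) and Pank3 (chr11:35782447-35782469) and miR-107 in Pank1 (chr19:34820700-34820722, minus strand). An assay of a mature miRNA does not tell copies from different genes apart.

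Every pool was read by TaqMan real-time PCR in 2 wells on BioMark nanolitre chips, which form panels A and B. The Ct is the cycle at which the signal crosses a threshold, so that a higher Ct stands for less RNA. Of the 750 assays, 271 and 223 gave a Ct in arthritic pools 1 and 2, against 294 and 287 in the non-arthritic pools. Duplicate wells differed with an SD of 0.761 and 1.47 cycles in arthritic pools 1 and 2, against 0.883 and 1.04 cycles for the non-arthritic pools. Arthritic pool 2 stood apart, with a median Ct on panel A of 15.9, against 12.5 in arthritic pool 1, 12.6 in non-arthritic pool 1 and 12.8 in non-arthritic pool 2. On panel B, which holds the miR-378 assay, the median was 16.5 and 18.4 in the arthritic pools, against 15.5 and 15.6 in the non-arthritic pools. Values of members that depend on this pool, arthritic pool 2, are given below with and without it.

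miR-193b was read at a Ct of 9.95 and 9.77 in arthritic pools 1 and 2, against 6.20 and 6.05 in the non-arthritic pools. Its cluster partner miR-365 was read at 21.9 and 21.2 in the arthritic pools, against 18.0 and 17.9 in the non-arthritic pools. For both miRNAs the arthritic pools lay close together and well above the non-arthritic pools, by 3.73 cycles for miR-193b and 3.63 cycles for miR-365 on average. The hsa-miR-378 assay gave 12.7 and 12.8 in the arthritic pools, against 11.8 and 10.7 in the non-arthritic pools, again without overlap.

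The remaining members followed the panel medians, with arthritic pool 2 apart from the rest. miR-26a was read at 6.35 and 9.82 in the arthritic pools, against 6.80 and 6.18 in the non-arthritic pools. miR-26b was read at 10.6 and 15.4 in the arthritic pools, against 12.1 and 11.3 in the non-arthritic pools, where the wells of pool 2 lay far apart at 8.96 and 13.6. miR-103 was read at 18.5 and 21.3 in the arthritic pools, against 18.1 and 18.3 in the non-arthritic pools. In miR-26a and miR-26b arthritic pool 1 lay within or below the non-arthritic range of Ct, so the groups overlapped. Raw Ct was higher in both arthritic pools than in both non-arthritic pools for 4 of 6 members (miR-193b, miR-365, miR-378 and miR-103), against 48.8% of the 209 assays detected in all 4 pools.

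miR-107 was near the limit of detection. It gave a Ct of 25.9 in 1 of the 2 wells of arthritic pool 1 and none in arthritic pool 2, against 23.3 and 24.4 in the non-arthritic pools, where all wells gave a Ct. It was not tested, since it was not detected in all 4 pools. At the highest Ct recorded in the data, 26.997, the level in arthritic pool 2 would be -11.1, which lies between the measured non-arthritic levels of -10.7 and -11.5. A level in that pool as low as in non-arthritic pool 2 was thus not detectable.

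**Figure D1:**
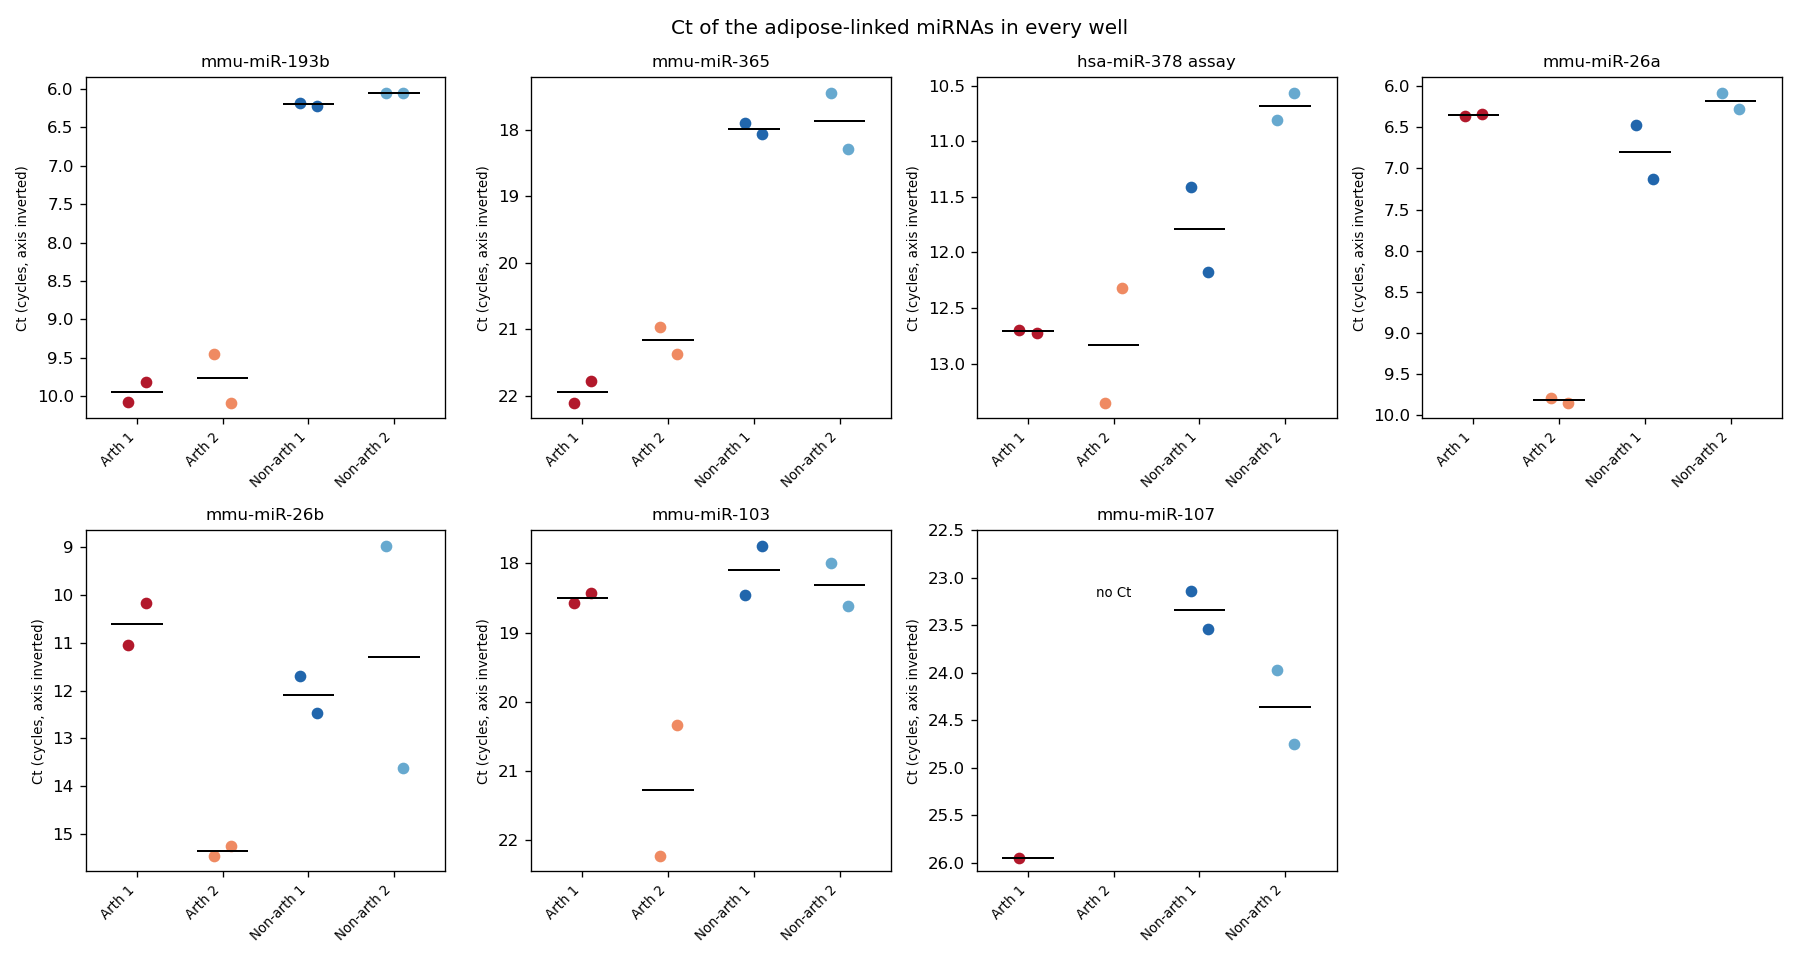
Ct of each adipose-linked miRNA in every well (vertical axes in cycles, inverted so that more RNA is higher, each with its own range), for arthritic pools 1 and 2 and then non-arthritic pools 1 and 2. Points are wells, bars are pool means, and "no Ct" marks a pool with no amplification. miR-193b and miR-365 lie at 9.95 and 9.77 and at 21.9 and 21.2 in the arthritic pools, apart from the non-arthritic pools, while miR-26a, miR-26b and miR-103 are lowest in arthritic pool 2.

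To compare groups, the level of an assay was taken as the median Ct of its panel in that pool minus its own Ct, in log2 units. These levels were 2.59 and 6.13 for miR-193b in the arthritic pools, against 6.44 and 6.77 in the non-arthritic pools. They were -9.40 and -5.26 for miR-365 in the arthritic pools, against -5.35 and -5.05 in the non-arthritic pools. For both, arthritic pool 1 was far below the other 3 pools, and arthritic pool 2 was close to the non-arthritic pools, with overlap for miR-365. The level of miR-193b averaged 4.36 ± 2.50 in arthritic and 6.60 ± 0.23 in non-arthritic synovium (SD, n = 2 each), a log2 difference of -2.24 ± 1.25 (SE). That of miR-365 averaged -7.33 ± 2.93 in arthritic and -5.20 ± 0.21 in non-arthritic synovium (SD, n = 2 each), a log2 difference of -2.13 ± 1.39 (SE). Neither passed, with adjusted p = 0.212 for miR-193b and 0.277 for miR-365 (limma with Benjamini-Hochberg adjustment over the 209 assays). Their 95% intervals ran from -5.29 to 0.81 and from -5.54 to 1.27.

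The differences of the other members lay closer to 0 with the panel median. miR-378 had levels of 3.80 and 5.58 in the arthritic pools, against 3.74 and 4.96 in the non-arthritic pools, a log2 difference of 0.34 with a 95% interval from -1.97 to 2.65. With levels set against each chip's own median it was 2.22 and did not pass either (adjusted p = 0.344, limma), and leaving out arthritic pool 2 gave -0.55. miR-26a had 6.19 and 6.08 in the arthritic pools, against 5.84 and 6.64 in the non-arthritic pools, a difference of -0.10 (-1.94 to 1.73). miR-26b had 1.93 and 0.54 in the arthritic pools, against 0.55 and 1.52 in the non-arthritic pools, a difference of 0.20 (-1.91 to 2.31), or 0.89 without arthritic pool 2. miR-103 had -5.96 and -5.37 in the arthritic pools, against -5.47 and -5.49 in the non-arthritic pools, a difference of -0.19 (-1.98 to 1.61). In each of these 4 the groups overlapped. The adjusted p was 0.807 for miR-378, 0.917 for miR-26a, 0.871 for miR-26b and 0.854 for miR-103 (limma). Their intervals reached down to between -1.98 and -1.91 and up to between 1.61 and 2.65 log2 units.

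No member passed, 0 of 6, and none had an unadjusted p under 0.05, where 21.5% of the 209 assays passed in either direction and 12.0% passed as lower in arthritic synovium. 1 of 6 members, miR-193b, lay lower in both arthritic pools than in both non-arthritic pools, as did 32.1% of all assays. The median log2 difference of the members was -0.15, beside 0.19 over all 209. The smallest p that exact permutation of 2 against 2 pools allows is 0.333. The samples are whole tissue, so that fewer fat cells and less of a miRNA per cell cannot be told apart, and the share of fat was not measured.

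By level, miR-193b ranked 49 in arthritic and 19 in non-arthritic synovium among the 209 assays. miR-26a ranked 25 in both, miR-378 ranked 40 in arthritic and 44 in non-arthritic, and miR-26b ranked 83 in arthritic and 89 in non-arthritic synovium. miR-365 ranked 192 in arthritic and 177 in non-arthritic, and miR-103 ranked 176 in arthritic and 181 in non-arthritic synovium. Assays differ in how efficiently they amplify, so that a rank is not an abundance, and the ranks carry no test. The level also rests on the median of the assay's own panel, which was higher on panel B, so ranks across panels do not follow Ct. In non-arthritic synovium the mean Ct was 11.2 for miR-378, on panel B, and 11.7 for miR-26b, on panel A.

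**Figure D2:**
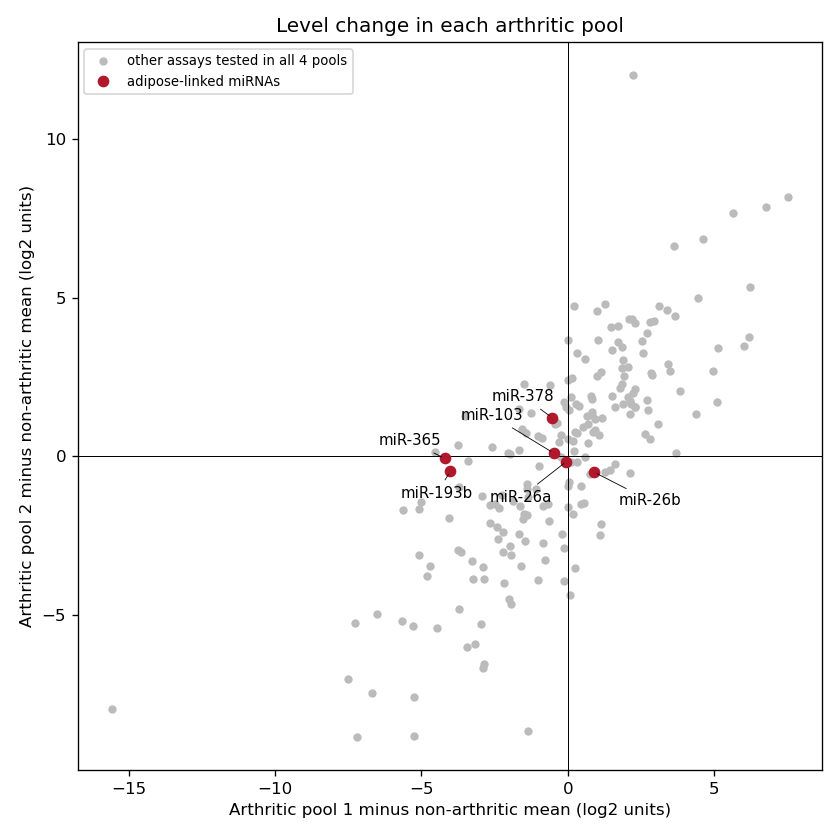
Level change of each assay in arthritic pool 1 (horizontal) and arthritic pool 2 (vertical), each minus the mean of the non-arthritic pools, in log2 units; grey points are the other assays tested and red points the adipose-linked miRNAs. miR-193b lies at -4.01 and -0.47 and miR-365 at -4.20 and -0.06, while the other 4 lie within 1.23 log2 units of 0 in both pools.

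The result for miR-193b and miR-365 turned on arthritic pool 2. Without that pool, both passed as lower in arthritic synovium, miR-193b by a log2 difference of -4.01 (adjusted p = 0.00146, limma) and miR-365 by -4.20 (adjusted p = 0.00110), where 25.4% of all assays passed as lower. Without arthritic pool 1 the differences were -0.47 for miR-193b (adjusted p = 0.525, limma) and -0.06 for miR-365 (adjusted p = 0.930). Each of these fits leaves 1 arthritic pool, which is assumed to vary like the non-arthritic pools. The other 4 members did not pass in either fit. Over all assays, 104 passed in either direction without arthritic pool 2 and 113 without arthritic pool 1, beside 45 with all pools, and 17 and 12 passed without non-arthritic pools 1 and 2.

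Raw Ct and the panel median moved apart between the arthritic pools. In arthritic pool 2 minus arthritic pool 1, the raw Ct of all 209 assays shifted by a median of 2.70 cycles, with quartiles of 1.24 and 3.86, and 21 assays were at or below 0. miR-193b shifted by -0.18 cycles and miR-365 by -0.78, with 9.09% and 4.78% of assays showing a lower shift. The miR-378 assay shifted by 0.13 cycles, miR-103 by 2.77, miR-26a by 3.47 and miR-26b by 4.75. Of the control RNAs on panel A, the small nuclear RNA U6 was read at 5.78 and 5.67 in the arthritic pools, against 7.61 and 6.56 in the non-arthritic pools. snoRNA202 was read at 9.41 and 9.45 in the arthritic pools, against 9.21 and 8.19 in the non-arthritic pools. snoRNA135 was read at 18.6 and 19.6 in the arthritic pools, against 22.0 and 22.5 in the non-arthritic pools. On panel A, U6 and snoRNA202 thus differed little between the arthritic pools and snoRNA135 was higher in pool 2, by less than the panel median. On panel B, U6 was read at 4.87 and 5.07, snoRNA202 at 9.34 and 9.96 and snoRNA135 at 16.7 and 18.1 in the arthritic pools, against 5.55 and 4.59, 7.88 and 6.13, and 17.6 and 17.6 in the non-arthritic pools. What set the arthritic pools apart was not tested.

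**Figure D3:**
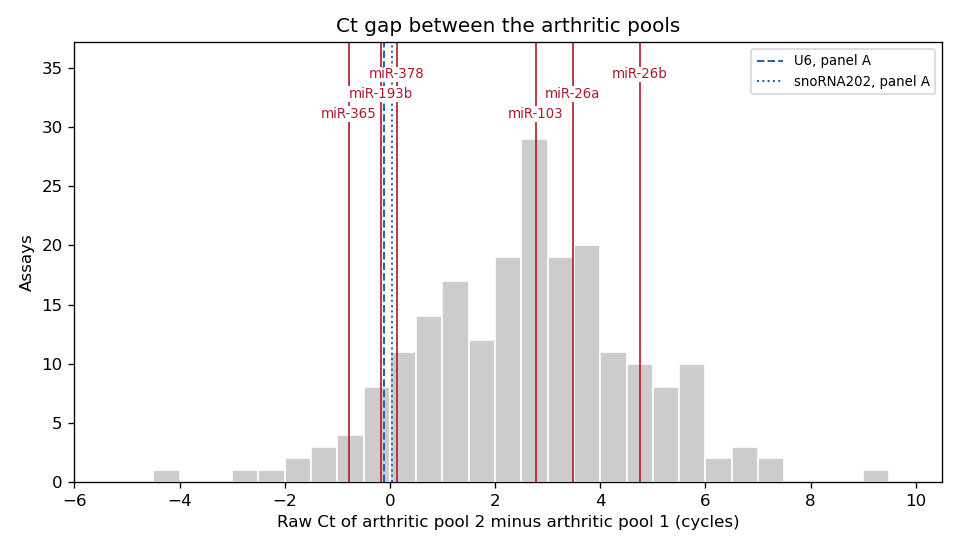
Number of assays (vertical) by raw Ct of arthritic pool 2 minus arthritic pool 1 in cycles (horizontal, bins of 0.5 cycles), for the 209 assays detected in all 4 pools. Red lines mark the adipose-linked miRNAs and blue lines 2 control RNAs on panel A; miR-365, miR-193b and miR-378 lie at -0.78, -0.18 and 0.13 cycles, below the median of 2.70.

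The call depended on the normalization. With U6 of the same pool and panel in place of the panel median, the log2 difference was -5.10 for miR-193b (adjusted p = 0.0254, limma). It was -4.99 for miR-365 (adjusted p = 0.0283, limma), and both passed, where 25.8% of the 209 assays passed as lower. In that fit all 6 tested members had the same SE, 1.80, so these p-values rest wholly on spread shared across assays. Assays of a pool and panel share its U6 reading and are not independent, so these p-values are not comparable with those of the panel median. With snoRNA135 and snoRNA202 as the reference the differences were -4.93 for miR-193b (adjusted p = 0.0144, limma) and -4.82 for miR-365 (adjusted p = 0.0159), again beside 25.8% of all assays. With all 3 controls they were -4.98 (adjusted p = 0.0220, limma) and -4.88 (adjusted p = 0.0235), beside 22.5% of all assays. On raw Ct, 0 of 6 members passed, with adjusted p = 0.119 for miR-193b and 0.121 for miR-365 (limma), where 3.83% of all assays passed as lower.

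These references moved the whole table and not only the members. The median log2 difference over the 209 assays was -2.51 with U6, -1.91 with the snoRNAs and -1.43 on raw Ct, beside 0.19 with the panel median. Relative to that median, the difference of miR-193b was -2.59 with U6, -3.02 with the snoRNAs and -2.31 on raw Ct, beside -2.43 with the panel median. That of miR-365 was -2.48, -2.91 and -2.20 under the same 3 settings, beside -2.32. A reference shifts every assay of a pool and panel alike, so values relative to the median stay close largely by construction. The signs of miR-378 and miR-26b turned negative, at -1.63 and -2.66 with U6. The controls also disagreed with each other on panel A, where Ct was lower in arthritic synovium for snoRNA135 and higher for snoRNA202. The level differences of miR-193b and miR-365 were below 0 in 19 of 19 alternatives. Some alternatives, such as a replicate block by pool number, cannot move these differences, and all reuse the same pools. The count is thus not separate support for a lower level.

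**Figure D4:**
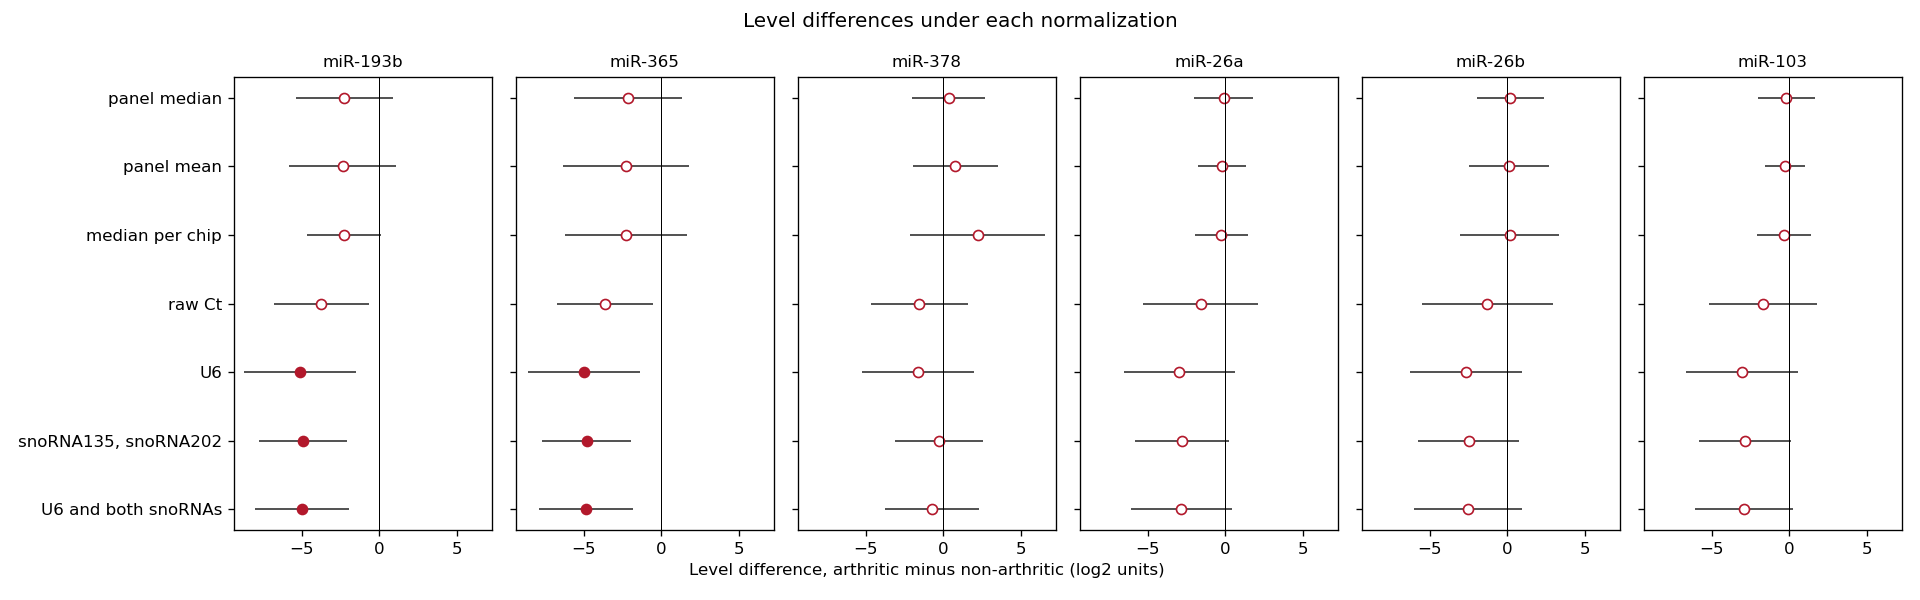
Log2 level difference, arthritic minus non-arthritic (horizontal, log2 units), of each of the 6 tested miRNAs under 7 normalizations (rows), with 95% intervals as lines; filled points passed an adjusted p of 0.05 in limma. miR-193b and miR-365 are filled only with U6, the snoRNAs or both as the reference, at -5.10 and -4.99 with U6, and no other member is filled.

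The authors' deposited table gives a log2 difference of -2.50 for miR-193b and -2.25 for miR-365, ratios of 0.177 and 0.210. The authors' deposited table gives -0.54 for miR-26a, -0.36 for miR-103 and -0.04 for miR-26b. It does not list miR-378 under either species name. For miR-107 the authors' deposited table lists an arthritic average of 0 and a non-arthritic average of 0.363.

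Pairs of related members were set against each other within a pool, which removes the panel median. The log2 ratio of miR-193b over miR-365 was 12.0 and 11.4 in the arthritic pools, against 11.8 and 11.8 in the non-arthritic pools. It averaged 11.7 ± 0.42 in arthritic and 11.8 ± 0.023 in non-arthritic synovium (SD, n = 2 each; exact permutation p = 1, two-sided). miR-26a over miR-26b, which share a seed, was 4.26 and 5.54 in the arthritic pools, against 5.28 and 5.12 in the non-arthritic pools (exact permutation p = 1, two-sided). Its group means differed by -0.30 with all pools, -0.94 without arthritic pool 2 and 0.33 without arthritic pool 1, so its sign depended on the arthritic pool. miR-103 over miR-107 was 7.45 in arthritic pool 1, from 1 well of miR-107, against 5.24 and 6.05 in the non-arthritic pools, and could not be tested. The p-values of the 2 pairs tested stayed at 1 after adjustment over them. The ratio of different assays also holds their amplification.

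The distance between members' patterns, taken over the 4 pools after each was centred on its mean, was smallest for miR-193b and miR-365, at 0.437 log2 units. miR-193b was 2.93 to 4.28 and miR-365 was 3.05 to 4.58 from the other 4 members. Among those 4 the distances ran from 0.771, between miR-26a and miR-103, to 2.25, between miR-378 and miR-26b. The 6 tested members thus did not share 1 pattern over the pools. The assays of a panel share its median, and the distances carry no test.

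Over all assays, the 3 nearest to miR-193b were miR-210, the miRNA of low oxygen, at 0.495, miR-342-3p at 0.603 and miR-191 at 0.732. The nearest to miR-365 were the same 3, with miR-191 first at 0.507, then miR-210 at 0.709 and miR-342-3p at 1.02. miR-210 had levels of -3.73 and -0.46 in the arthritic pools, against -0.47 and -0.14 in the non-arthritic pools, and did not pass (adjusted p = 0.280, limma). By level, its lowest pool was arthritic pool 1, as for miR-193b and miR-365. Its raw Ct was 16.3 and 16.4 in the arthritic pools, against 13.1 and 13.0 in the non-arthritic pools, so that the arthritic pools lay together on that scale. Around miR-378 lay miR-30a at 0.341, the other strand of miR-674 at 0.574 and miR-434-3p at 0.588. The nearest to miR-26a were the hsa-miR-149 assay at 0.366, the hsa-miR-340 assay at 0.421 and let-7b at 0.509. miR-26b lay nearest to the other strand of miR-322 at 0.225, miR-376c at 0.282 and the hsa-miR-149 assay at 0.651. miR-103 lay nearest to let-7d at 0.278, miR-337-5p at 0.441 and miR-192 at 0.540.

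Relatives outside the named set were read too. The assay named mmu-miR-193 gave no Ct in any well, and its other strand, mmu-miR-193#, was read at 15.7 and 18.4 in the arthritic pools, against 14.0 and 14.2 in the non-arthritic pools. Its level difference was -1.09 ± 0.75 (SE, adjusted p = 0.294, limma). The other strand of miR-26b was read at 24.1 in arthritic pool 1 and had no Ct in arthritic pool 2, against 21.9 and 23.0 in the non-arthritic pools.

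Another 36 miRNAs linked to fat cells were listed. Of these, 20 are described as enriched in fat cells or favouring their formation, here called favouring. The other 16 are described as restraining fat cell formation or browning, here called restraining. Of the 36, 34 had an assay under the listed name and 26 were detected in all 4 pools. 6 passed as lower in arthritic synovium, none as higher and 20 did not pass (limma). Of all 209 assays, 12.0% passed as lower and 21.5% in either direction. The median log2 difference of the list was 0.32, beside 0.19 over all assays. Leaving out any pool moved this count, as it moved the count over all assays. Of the favouring miRNAs, 3 of 15 tested passed as lower, beside the same 12.0% of all assays. miR-204, which steers marrow precursors towards fat, was read at 16.3 and 18.1 in the arthritic pools, against 10.2 and 9.69 in the non-arthritic pools, a log2 level difference of -5.74 (adjusted p = 0.0122, limma). miR-30e had a difference of -4.94, and the mmu-miR-143 assay, of a miRNA that promotes fat cell differentiation, one of -4.12. A second assay of that miRNA, hsa-miR-143 on panel B, was not counted in the list. Its difference was -2.06 and did not pass (adjusted p = 0.0936, limma). miR-378's nearest neighbour, miR-30a, is also on the list and did not pass, at 0.29.

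Of the restraining miRNAs, 3 of 11 tested passed as lower, again beside 12.0% of all assays. miR-222 was read at 17.1 and 22.1 in the arthritic pools, against 10.1 and 10.1 in the non-arthritic pools. Its log2 level difference was -8.02 (adjusted p = 0.00421, limma). It dropped out of the fit when both wells of every pool were needed, so the value of some pool rested on a single well. miR-133a, which restrains brown fat formation and is a muscle miRNA, had a difference of -7.07, and miR-138 one of -3.36. miR-138 did not pass with the panel mean (adjusted p = 0.0671, limma), on raw Ct (0.121) or with the median per chip (0.0515). It also missed with a Ct limit of 26 (adjusted p = 0.0522, limma), the lower Ct of the wells (0.0543) and undetected wells at the highest Ct (0.0902). Among other settings, it passed with U6 (adjusted p = 0.00611, limma) and a Ct limit of 24 (0.0369). The mmu-miR-143 assay did not pass with the panel mean (adjusted p = 0.0778, limma), on raw Ct (0.119) or with the median per chip (0.0548). It also missed with a Ct limit of 26 (adjusted p = 0.0540, limma) and undetected wells at the highest Ct (0.0806). Among other settings, it passed with U6 (adjusted p = 0.00153, limma) and the lower Ct of the wells (0.0435). miR-30e did not pass on raw Ct (adjusted p = 0.0678, limma). The largest differences that did not pass are given over the favouring and restraining miRNAs together. On the higher side were the restraining miR-31 at 3.41 and miR-125b-5p at 2.91, and the favouring miR-21 at 2.95. On the lower side were the favouring miR-182 at -2.09 and miR-210, described above, at -1.79. The lowest of those that did not pass was the hsa-miR-196a assay, of a favouring miRNA (adjusted p = 0.132, limma). Its Ct was 13.3 and 22.5 in the arthritic pools, against 11.4 and 10.7 in the non-arthritic pools.

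Markers of other cell types were read too, and their part in these results was not tested. Of those tested, 1 of 2 muscle miRNAs and 1 of 3 leukocyte miRNAs passed. No red cell, endothelial or fibroblast miRNA passed, where 21.5% of all 209 assays passed in either direction. Of 6 skeletal muscle miRNAs, miR-1 and miR-133b had a Ct only in the non-arthritic pools, miR-133a passed as lower, the hsa-miR-206 assay did not pass at -2.41, and miR-499 and miR-208b had no Ct in any pool. Of 5 leukocyte miRNAs, miR-142-3p rose by 3.83 log2 units (adjusted p = 0.0402, limma), with a Ct of 10.4 and 16.0 in the arthritic pools, against 15.6 and 15.5 in the non-arthritic pools. It did not pass on raw Ct (2.34, adjusted p = 0.496, limma) or with U6 (0.97, adjusted p = 0.745). Of the other leukocyte miRNAs, miR-223 had a difference of 1.77, miR-150 one of -1.99, and miR-142-5p and miR-155 were not detected in all pools. Both endothelial miRNAs missed the threshold, miR-126-3p at -2.38 and miR-126-5p at -2.02. Of the 3 red cell miRNAs, miR-451 had a difference of -0.78, miR-486 gave a Ct only in the non-arthritic pools and the hsa-miR-144 assay gave none. Of 4 fibroblast miRNAs, miR-214, miR-199b and miR-199a-3p had differences of 2.32, 1.68 and -0.69 and did not pass, and miR-199a-5p had a Ct in arthritic pool 1 alone.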

How the data were processed

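The authors deposited BioMark Ct sheets without normalization, per the file headers, in which 999 marks wells with no Ct. A second deposited table holds group averages, their differences on a log2 scale and the fold (ratio) between groups. The sources used here do not give the Ct thresholds or how the fold table was normalized. RNA was isolated with a mirVana kit and reverse transcribed with a TaqMan kit, per the labels' protocols. Of 6096 wells, 2083 had a Ct, and 6 columns without an assay were not used.

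Wells of a pool were averaged. The 209 assays with a Ct in all 4 pools, 134 on panel A and 75 on panel B, were fitted in R 4.3.3 by limma 3.58.1 (lmFit, eBayes, two-sided, no pairing) and adjusted by Benjamini-Hochberg at 0.05. A Ct under 35 counted as detected. With the panel median and all 4 pools, the prior had 4.02 degrees of freedom beside 2 residual ones, so the calls rest on spread shared across assays. With U6, with the pool number as a replicate block and without either non-arthritic pool, all tested members had the same SE. Those fits rest on shared spread alone. Tested on 209 simulated assays of the same comparison, the fit recovered 10.0% of changes of 2 log2 units, 68.9% of 4 and 91.4% of 6. The simulation drew independent spreads, without pool effects. The median SE was 0.87 log2 units, and the number of pools limits the precision.

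The members, lists and tests were chosen with earlier results of these data known. The text names the members, the 3 assays nearest to each, the other fat-linked miRNAs that passed and up to 3 of the largest per direction, the control RNAs and the listed markers. U87, Y1 and ath-miR159a controls gave no Ct. The sources used here do not say which arm the hsa-miR-378 assay reads. Sequences were read from RefSeq tables (GRCm38.p6). Alternatives were other normalizations, Ct limits, filters, wells, moderation, a replicate block and each pool left out. Python 3.11.15 with matplotlib 3.10.9 drew the figures.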

Additional observations from a re-analysis of the deposited data

How the results depend on the processing

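Across 19 alternatives, miR-193b and miR-365 were lower in arthritic synovium in each, from -5.10 to -0.47 and from -4.99 to -0.06 log2 units, and they passed in 4: U6, the snoRNAs, both together, and without arthritic pool 2. Members that passed numbered 2 in those 4 and 0 in the others, leave-one-out 0 to 2. The alternatives reuse the same pools and some cannot move a difference, so their number is not separate support. miR-378 turned negative with U6 (-1.63), the snoRNAs (-0.29), both (-0.74) and raw Ct (-1.53). For miR-378 the difference was 2.22 with the median per chip, and leaving out a pool gave -0.55 to 1.23. miR-26b turned negative with U6 (-2.66), the snoRNAs (-2.49), both (-2.54), raw Ct (-1.29) and the lower Ct of the wells (-1.02). It was -0.071 when the second listed well of every assay on chip A3 was left out for arthritic pool 2, which moved the panel median. For miR-26b, leaving out a pool gave -0.49 to 0.89. Leaving out a pool gave -0.48 to 0.11 for miR-103 and -0.51 to 0.30 for miR-26a, which with U6 were -3.04 and -2.96. The ratio of miR-26a over miR-26b differed by 0.60 with the lower Ct of the wells and by -0.94 to 0.33 leaving out a pool, beside -0.30. Of all assays, 45 passed, beside 25 with the panel mean, 8 on raw Ct, 25 with undetected wells at the highest Ct, 79 at an adjusted p of 0.1, 0 without moderation (55 at an unadjusted p under 0.05) and 12 to 113 leaving out a pool. Of the other fat-linked assays, 6 passed, beside 11 with U6, 10 with the snoRNAs, 10 with both, 3 on raw Ct, 0 without moderation and 2 to 14 leaving out a pool. With the pool number as a replicate block, 66 assays, 10 other fat-linked assays and 0 members passed. Over the tested assays, the difference of pool 1 minus pool 2 correlated at 0.07 between the groups. That value alone does not settle whether pools of the same number were handled together. The causes were not tested. The small number of pools and Ct near 27, where miR-107 lies, limit what was detectable.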
